A study of Mus musculus with 4 samples.

Results

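The genes of the cytosolic ribosome's proteins were followed through single-nucleus RNA sequencing of the mouse hypothalamus. They were chosen by symbol: a name of the Rpl or Rps series, or Rplp0, Rplp1, Rplp2 or Rpsa, with at least 10 unique molecular identifiers (UMIs, each standing for 1 captured RNA molecule) in every library. Of 33696 genes in the files, 83 had such a symbol and 81 passed, 49 of the large subunit and 32 of the small one. Rpl3l lay just inside the threshold, with 27, 12, 29 and 27 UMIs, and Rpl39l lay just outside, with 8, 0, 0 and 4. Rpl10l had no UMI.

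Hypothalamus was taken after vehicle in 2 libraries, called vehicle 1 and 2 here, and after imidazole propionate (ImP) in 2 others, called ImP 3 and 4. ImP is a metabolite that some gut bacteria make from histidine. The mice were wild type C57BL/6J with a conventional (SPF) microbiota, and no age was found in the labels. An osmotic minipump in the peritoneum released 350 µg of ImP a day, or water with 1% DMSO alone, for 2 weeks. The labels do not say how many animals a library stands for, so p-values measure the spread between libraries.

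A ribosome is built from ribosomal RNA and one copy of most of these proteins, so cells keep the proteins in near-equal amounts. Their mRNAs are short, abundant and long-lived in the cytoplasm, and most begin with a tract of C and T, the 5′ terminal oligopyrimidine (TOP) motif, through which Larp1 and the mTORC1 kinase set their translation. A nucleus holds the newly made part of this RNA. When tissue is broken up, cytoplasmic mRNA also spills into the suspension and enters droplets with nuclei of any type, as free RNA.

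Sequences near the annotated start sites are shown because the tract is what most mRNAs of this family are known for. RefSeq (GRCm38.p6, an older build than that of the counts) listed 61 of the 81 genes. Between 30 bases before and 40 after the annotated start, 43 of these 61 had at least 8 C or T in a row (70.5%), against 28.7% of all 27025 genes in that table. The motif CCGGAAGT, searched on both strands from 250 bases before to 50 after the start, was present in 12 of the 61 (19.7%) and in 4.31% of all genes. In the stretches below, 5′ to 3′ on the gene's strand, capitals mark the C and T run. The stretches are centred on the run, so not all of them hold the annotated start. Counted from that start, the run began at -20 in Rpl5, -16 in Rpl13, -5 in Rplp2 and 1 in Rpl22l1. It began at 13 in Rpl11, 29 in Rpl9 and 31 in Rpl6. A run in this window need not open the mRNA, so it is not by itself a TOP motif. Rpl7l1, which had no run of 8, is shown around its start. Other members without such a run, among them Rplp0, Rpl22 and Rps4x, are not shown. Whether the run goes with a gene's levels was not tested.
Rpl9: acgaaagacgTTCTCTCTTTgccccatcta
Rpl13: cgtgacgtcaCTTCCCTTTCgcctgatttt
Rplp2: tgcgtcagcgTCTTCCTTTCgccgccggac
Rpl11: ccggaagTCTCCCTCTCTCTTCCTgttctc
Rpl5: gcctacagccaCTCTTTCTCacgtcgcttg
Rpl6: cgctgccttagTTCTCTTTCCCgtcttgca
Rpl22l1: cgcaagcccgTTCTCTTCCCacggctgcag
Rpl7l1: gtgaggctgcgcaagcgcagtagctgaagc
They lie at chr5:65391383-65391412 (Rpl9, minus strand), chr8:123102324-123102353 (Rpl13, plus), chr7:141447636-141447665 (Rplp2, plus) and chr4:136053358-136053387 (Rpl11, minus). The others lie at chr5:107900497-107900526 (Rpl5, plus), chr5:121204521-121204550 (Rpl6, plus), chr3:28805499-28805528 (Rpl22l1, plus) and chr17:46782642-46782671 (Rpl7l1, minus).

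The libraries held 11255 and 13723 barcodes with vehicle and 15471 and 16348 with ImP, each more than the 10000 nuclei the labels give as loaded. Total UMIs were 48060194 to 51945297. Nuclei with at least 500 genes and no more than 5% mitochondrial UMIs numbered 10917 to 15725. Their median UMIs were 3757 and 3179 with vehicle and 2852 and 2820 with ImP. What the difference in barcode number contributes to the results was not tested. Pairs of libraries shared 39 to 76 barcodes, at most 0.524% of the smaller one. A nucleus was assigned to the class with the highest number of its 10 marker genes seen, at least 3, which gave 25604 neuron-like, 3305 astrocyte-like, 4590 oligodendrocyte-like, 1271 OPC-like (oligodendrocyte precursor) and 468 microglia-like nuclei over the 4 libraries. No marker of another class was among the 10 leading genes of these 5 classes, and no neuron marker was among those of the neuron-like nuclei, which Cntn5 and Hs3st4 led. ImP 4 stood apart. Its neuron-like nuclei held 1077 CPM (a gene's UMIs scaled to a fixed total for each class and library) of Gh, the pituitary growth hormone gene, against 25.8 in vehicle 1, 4.09 in vehicle 2 and 21.4 in ImP 3, and the gate took up 51.7% of its nuclei against 67.8% to 74.7% in the others. With Gh and Prl left out of the gate that share was 65.0%.

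The 81 genes made up a small share of nuclear RNA, smallest of 5 main classes in neurons. In neuron-like nuclei they gave 0.503% of UMIs in vehicle 1, 0.621% in vehicle 2, 0.766% in ImP 3 and 0.737% in ImP 4. Astrocyte-like nuclei gave 0.977%, 1.36%, 1.67% and 1.59% in the same order, and oligodendrocyte-like nuclei 1.09%, 1.41%, 1.76% and 1.63%. OPC-like nuclei lay between, at 0.714%, 0.979%, 1.25% and 1.18%, and microglia-like nuclei were highest of these 5 classes, at 1.19%, 1.59%, 2.12% and 2.06%. Endothelial-like nuclei, only 9 to 21 a library, had 1.25%, 1.95%, 2.74% and 3.21%. In each library the order of the 5 was neuron, OPC, astrocyte, oligodendrocyte and microglia, and in each class both ImP libraries were above both vehicle libraries. Astrocyte- and oligodendrocyte-like nuclei were close neighbours in that order, with the oligodendrocyte-like share the higher one in each of the 4 libraries. Among neuron-like nuclei the GABAergic ones had 0.481%, 0.576%, 0.722% and 0.699%, and the glutamatergic ones 0.416%, 0.537%, 0.642% and 0.636%.

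Counted per nucleus, neurons had the most. A neuron-like nucleus carried on average 27.8, 29.2, 31.9 and 32.1 UMIs of these genes in vehicle 1, vehicle 2, ImP 3 and ImP 4. An astrocyte-like nucleus carried 16.7, 19.8, 24.3 and 24.6, an oligodendrocyte-like one 17.5, 20.7, 25.1 and 25.02, and an OPC-like one 17.5, 20.9, 25.9 and 25.1. Microglia-like nuclei had 17.99, 20.6, 24.6 and 25.8. The 4 glial classes thus lay close together within a library, at 0.601 to 0.810 times the neuronal number, while their total UMIs were 0.272 to 0.495 times those of neuron-like nuclei.

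**Figure D1:**
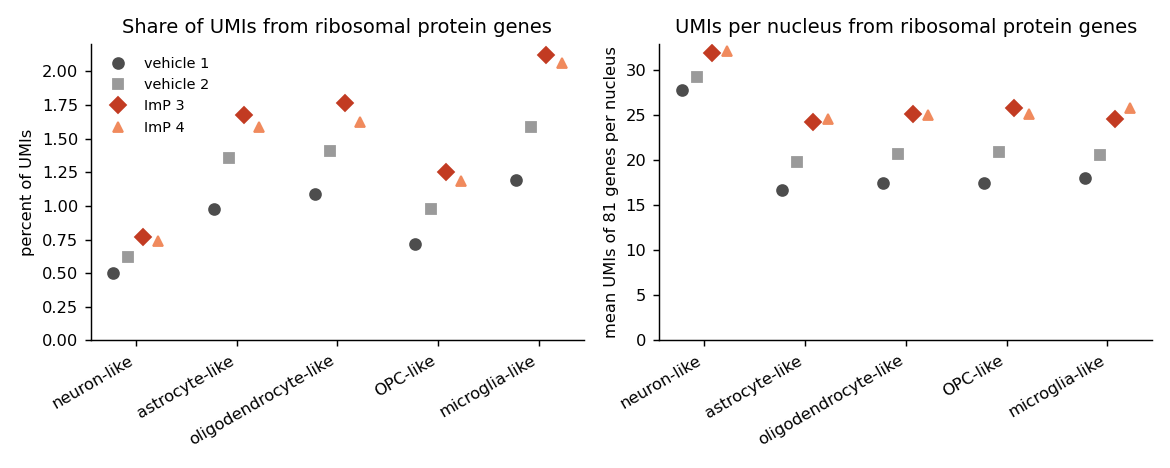
Share of UMIs (left, percent) and mean UMIs per nucleus (right) from the 81 ribosomal protein genes in 5 marker-gated classes. Each point is 1 library; neuron-like nuclei have the lowest share, 0.503% to 0.766%, and the highest number per nucleus, 27.8 to 32.1.

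Single genes followed the sum. CPM of different genes are not per length and are not ranked against each other here, beyond naming genes among those with the highest counts in neuron-like nuclei. Rpl9, a large-subunit gene, was at 164 and 203 CPM in vehicle 1 and 2 and at 253 and 247 in ImP 3 and 4. Rpl13 was at 138 and 175 against 208 and 199. In both genes both ImP libraries lay above both vehicle libraries, with vehicle 1 lowest. Rplp1, which encodes an acidic protein of the stalk that calls in translation factors, was at 116 and 141.5 against 197 and 168. Rps24 was at 105 and 132 against 183 and 168.

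The first comparison set ImP against vehicle in neuron-like nuclei. The levels of 80 of 81 genes were higher in both ImP libraries than in both vehicle libraries, where 16.6% of all 19727 genes tested were. The median log2 ratio of the 81 was 0.45, against 0.00 for all genes tested. None of them passed the threshold of 0.05 after adjustment over all genes by edgeR's quasi-likelihood test, nor did any other gene (0% of all genes). The smallest adjusted p among the 81 was 0.242. Without adjustment 75 of 81 had a p under 0.05, and 1365 of all genes did. The 81 genes come from the same 4 libraries and are not replicates of the treatment.

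Rps25, a small-subunit gene whose protein aids initiation at internal ribosome entry sites, had the smallest p. Its level was 36.4 and 42.0 CPM with vehicle and 60.8 and 56.0 with ImP, a log2 ratio of 0.60 with a standard error of 0.09. Rpl21 was at 94.1 and 107 against 138 and 136 (log2 ratio 0.46 ± 0.08 SE), and Rpl41, which encodes one of the shortest proteins known, at 74.0 and 82.4 against 103 and 111 (0.48 ± 0.08 SE). The groups did not overlap for these genes, and each adjusted p by edgeR was 0.242. Rpl3l, a form of Rpl3 known from muscle, had the largest ratio, 0.94 ± 0.43 SE, on levels of 0.403, 0.220, 0.646 and 0.538 CPM, close to its detection limit.

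The stalk genes had like ratios. Rplp0, the stalk's base, was at 22.9 and 27.6 CPM against 33.9 and 36.0 (log2 ratio 0.49 ± 0.11 SE), and Rplp2 at 53.3 and 63.0 against 81.4 and 81.4 (0.51 ± 0.09 SE). Rplp1 had 0.53 ± 0.11 SE. Rpl5 and Rpl11 bind 5S ribosomal RNA and, when free, the Mdm2 protein that holds p53 down. Rpl11 was at 98.8 and 122 CPM against 149 and 146 (0.44 ± 0.10 SE). Rpl5 was at 66.5 and 74.7 against 83.5 and 77.5, a smaller difference (0.21 ± 0.08 SE) with adjusted p of 0.653 by edgeR. All 9 genes whose proteins line or border the exit tunnel and all 5 of the mRNA channel and decoding site had higher levels in both ImP libraries, with median log2 ratios of 0.38 and 0.45.

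Rpl7l1 was the exception in neuron-like nuclei. It is a relative of Rpl7 whose protein is found on large-subunit precursors in the nucleolus. It was at 32.8 and 35.2 CPM with vehicle and 34.5 and 34.1 with ImP, so that the groups overlapped (log2 ratio 0.03 ± 0.08 SE). Rpl6 came next, at 114 and 134 against 141 and 139 (0.20 ± 0.09 SE). Rpl22 and its relative Rpl22l1 did as the rest, with log2 ratios of 0.36 ± 0.10 SE and 0.42 ± 0.11 SE. So did Rps27l, a p53 target (0.51 ± 0.12 SE), and Rps4x (0.45 ± 0.10 SE).

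Neuron-like nuclei of the ImP libraries also held fewer UMIs, with medians of 3738 and 3928 against 4904 and 4169. Per nucleus, the members' sum differed by 0.17 on the log2 scale, less than the 0.42 of their share. Among nuclei of 3000 to 5000 UMIs, 67 of 80 genes were higher in both ImP libraries (14% of all genes), with a median of 0.29. Among nuclei of 1500 to 3000 UMIs, 69 of 80 were (16% of all genes), with a median of 0.28. No member passed the threshold in either window by edgeR. The 12 neuropeptide genes each made by few neurons, among them Pmch and Hcrt, were also higher: 9 of 12 had higher levels in both ImP libraries, and their summed level was 860 and 1043 CPM with vehicle and 1314 and 1772 with ImP. Their part in the result was not tested.

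The calls in neuron-like nuclei changed with the library left out. In these fits a group left with a single library is assumed to vary like the other. Without vehicle 2, 41 members passed the threshold (0.507% of all genes). Without ImP 3, 47 did (2.87%), and without ImP 4, 2 did (0.0836%). Without vehicle 1 none did, and the median fell to 0.29. DESeq2 on all 4 libraries called 49 members, with 0.973% of all genes called, where edgeR called none.

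The same comparison in the glial classes gave like values. In astrocyte-like nuclei 68 of 80 genes were higher in both ImP libraries (20.2% of all genes), with a median log2 ratio of 0.51. In oligodendrocyte-like nuclei 72 of 80 were (23.8%), with a median of 0.41, in OPC-like nuclei 63 of 80 (20.3%), with 0.54, and in microglia-like nuclei 57 of 78 (20.7%), with 0.59. The median over all genes lay between -0.01 and 0.01 in these classes. No member passed the threshold by edgeR in any of them, where 0% of all genes passed. By edgeR, 59, 47, 53 and 28 members in the same order had an unadjusted p under 0.05, as did 1018 of 11622, 1119 of 11738, 827 of 9123 and 394 of 3778 of all genes. DESeq2 called no member in these 4 classes.

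The genes that led differed from class to class. In astrocyte-like nuclei Rps20 (log2 ratio 0.67 ± 0.18 SE), Rpl32 (0.65 ± 0.17 SE) and Rpl15 (0.62 ± 0.17 SE) had the smallest p. In oligodendrocyte-like nuclei Rpl36a (0.73 ± 0.19 SE) and Rpl15 (0.63 ± 0.17 SE) had the smallest p. In OPC-like nuclei Rps23, of the decoding site, had 0.98 ± 0.19 SE, with the smallest adjusted p of any member in this comparison, 0.0818 by edgeR. Rpl36 (1.01 ± 0.23 SE) and Rpl11 (0.78 ± 0.19 SE) followed. In microglia-like nuclei these were Rps16 (1.23 ± 0.28 SE), Rps24 (0.98 ± 0.22 SE) and Rpl24 (1.06 ± 0.25 SE). At the low end, Rpl35, at the exit tunnel, had 0.08 ± 0.28 SE in astrocyte-like and -0.16 ± 0.28 SE in OPC-like nuclei, and Rpl7a had -0.03 ± 0.40 SE in microglia-like nuclei.

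The ends of the range were held by few genes. Rps27l had the largest ratio in astrocyte-like (0.83 ± 0.33 SE) and oligodendrocyte-like nuclei (0.87 ± 0.25 SE), and Rps28 had 0.77 ± 0.22 SE in astrocyte-like nuclei. Rpl7a had 0.15 ± 0.20 SE in astrocyte-like nuclei, and Rpl10a -0.01 ± 0.31 SE in microglia-like nuclei. Rpl10, which helps form the catalytic centre, had 0.07 ± 0.17 SE in oligodendrocyte-like and 0.03 ± 0.25 SE in OPC-like nuclei, and Rpl35 0.16 ± 0.22 SE in oligodendrocyte-like nuclei. Each of these low ratios was smaller than its standard error. Rpl7l1, the exception in neuron-like nuclei, was higher in both ImP libraries in each glial class, on few UMIs. It was at 30.3 and 33.2 CPM with vehicle against 36.2 and 39.4 with ImP in astrocyte-like nuclei. In oligodendrocyte-like nuclei it was at 29.6 and 29.7 against 31.6 and 38.7.

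Mean UMIs per nucleus differed less between the groups in glia than in neurons. The log2 ratio of ImP to vehicle was -0.08, -0.05, -0.13 and -0.22 in astrocyte-, oligodendrocyte-, OPC- and microglia-like nuclei, and -0.26 in neuron-like nuclei. Per nucleus, the members' sum differed by a log2 ratio of 0.42 in astrocyte-like, 0.39 in oligodendrocyte-like, 0.41 in OPC-like and 0.38 in microglia-like nuclei. Among glial nuclei of 1000 to 2000 UMIs the median ratios were 0.42, 0.43, 0.50 and 0.49. Of the genes tested there, 64 of 80, 71 of 80, 55 of 79 and 50 of 74 were higher in both ImP libraries, against 19.1%, 22.6%, 18.9% and 18.9% of all genes. Without vehicle 2, 40 members passed in astrocyte-like (2.5% of all genes), 29 in OPC-like (1.43%) and 9 in microglia-like nuclei (1.5%), and the medians were 0.77, 0.81 and 0.85. Without vehicle 1 no member passed in the 4 classes, and the medians were 0.25, 0.23, 0.30 and 0.35. The neuropeptides were higher here too: their sum was 1408 and 2107 CPM with vehicle and 2748 and 3793 with ImP in astrocyte-like nuclei.

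Whether ImP acted differently in glia and neurons was tested as an interaction. No member passed (higher in 0.0154% and lower in 0.0667% of all 19476 genes), and the median difference of the 81 log2 ratios was 0.04. Only Rps28 had an unadjusted p under 0.05, with a difference of 0.30 ± 0.12 SE and an adjusted p of 0.557 by edgeR. Rpl7l1 differed by 0.26 ± 0.15 SE. At matched UMIs the median difference was 0.17, and 10 of 80 members had an unadjusted p under 0.05, as did 1239 of all 16931 genes.

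**Figure D2:**
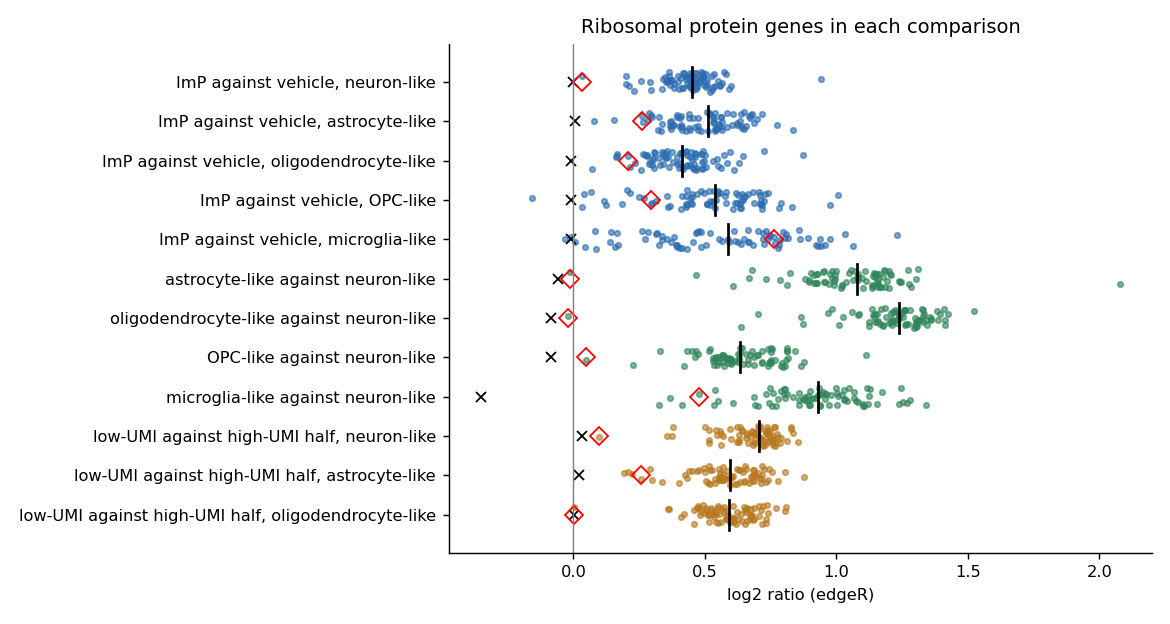
Log2 ratios (edgeR) of the ribosomal protein genes in 12 comparisons; each dot is 1 gene, black bars mark their median, crosses the median of all genes tested, and red diamonds Rpl7l1. The medians lie between 0.41 and 1.24. Rpl7l1 lies at the low end for ImP in neuron-like nuclei, at 0.03, but not in every comparison.

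The second comparison set each glial class against neuron-like nuclei of the same library. In astrocyte-like nuclei 80 of 81 genes were higher at an adjusted p under 0.05 by edgeR (29.8% of all genes), with a median log2 ratio of 1.08. In oligodendrocyte-like nuclei 79 of 80 were higher (31.6% of all genes), with a median of 1.24. In OPC-like nuclei 77 of 80 were (18.9%), with 0.63, and in microglia-like nuclei 76 of 80 (15.8%), with 0.93. No member was lower by this test in any class. For microglia-like nuclei the scaling matters: their median was 1.41 with library size alone, and the median of all genes went from -0.35 to 0.12.

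Rplp1 had the smallest p in 3 of the 4 classes. In astrocyte-like nuclei it was at 255 and 417 CPM with vehicle and at 484 and 412 with ImP, higher than in neuron-like nuclei of each library (log2 ratio 1.30 ± 0.08 SE). It had 1.41 ± 0.08 SE in oligodendrocyte-like and 1.12 ± 0.12 SE in microglia-like nuclei. Rps24 rose by 1.27 ± 0.08 SE and Rps29, of the decoding head, by 1.31 ± 0.08 SE in astrocyte-like nuclei. In oligodendrocyte-like nuclei Rplp0 had the largest ratio, 1.52 ± 0.09 SE. In microglia-like nuclei Rpl10a, at the site where the empty tRNA leaves, had 1.34 ± 0.19 SE and Rps9 1.28 ± 0.16 SE. Rpl26, at the tunnel's rim, had 1.41 ± 0.08 SE in oligodendrocyte-like and 1.27 ± 0.15 SE in microglia-like nuclei. In OPC-like nuclei Rpl13 led, at 287, 411, 405 and 441 CPM (1.11 ± 0.08 SE), well above that class's median.

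Rpl7l1 again did not follow. In astrocyte-like nuclei it was at 30.3, 33.2, 36.2 and 39.4 CPM, like its neuronal level (log2 ratio -0.01 ± 0.13 SE). In oligodendrocyte-like nuclei it had -0.02 ± 0.11 SE and in OPC-like nuclei 0.05 ± 0.16 SE, with adjusted p of 0.888 and 0.856 by edgeR. In microglia-like nuclei, on few counts, it had 0.48 ± 0.27 SE. Rpl3l had 2.08 ± 0.65 SE in astrocyte-like nuclei on few UMIs, and Rps27l 0.33 ± 0.51 SE in microglia-like nuclei. Rpl6 rose less than the median, by 0.46 ± 0.08 SE in astrocyte-like and 0.64 ± 0.08 SE in oligodendrocyte-like nuclei, as did Rpl5, by 0.61 ± 0.09 SE and 0.70 ± 0.08 SE.

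The make-up of the ribosomal protein UMIs differed little between classes for most genes. Each gene's share among the members' UMIs in astrocyte-like nuclei differed from that in neuron-like nuclei by a median of 0.11 on the log2 scale, and by 0.08, 0.10 and 0.09 in oligodendrocyte-, OPC- and microglia-like nuclei. Across genes with at least 100 UMIs the shares correlated with those of neurons at a Pearson r of 0.97, 0.97, 0.98 and 0.92 (80, 80, 78 and 50 genes of the same libraries, so a description). Genes span a wide range of levels, which alone raises such an r. Small shifts of 1 sign in all 4 libraries were common: 19 of 80 genes were higher and 19 lower in astrocyte-like nuclei, 20 and 15 of 80 in oligodendrocyte-like, 11 and 10 of 78 in OPC-like and 5 and 2 of 50 in microglia-like nuclei. Shifts past 0.5 were few. In astrocyte-like nuclei they were Rpl7l1 (-1.04) and Rpl6 (-0.59), in oligodendrocyte-like nuclei Rpl7l1 (-1.23), Rpl6 (-0.59) and Rpl5 (-0.52), and in microglia-like nuclei Rpl6 (-0.59). These were lower in each of the 4 libraries. Rpl13 was the member most raised in OPC-like nuclei, by 0.46 (SD 0.15, n = 4 libraries).

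**Figure D3:**
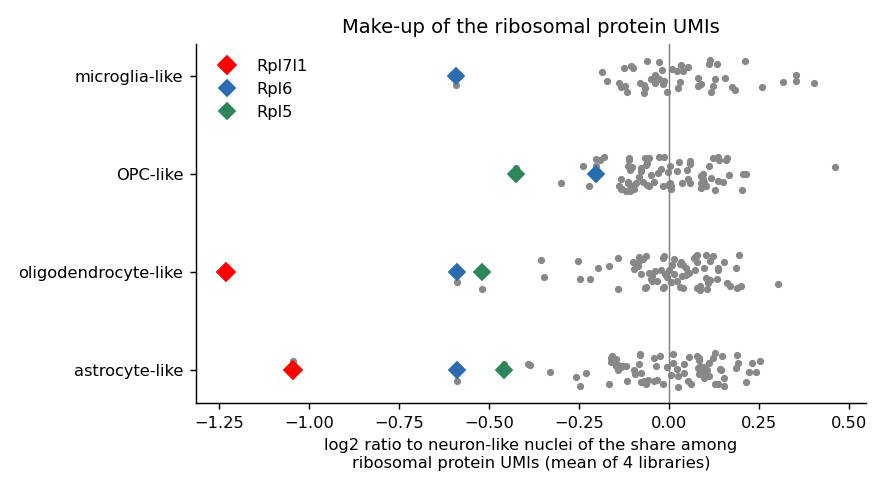
Log2 ratio of each gene's share among the ribosomal protein UMIs, glial against neuron-like nuclei, mean of 4 libraries (grey, genes with at least 100 UMIs in the class). Rpl7l1 (-1.04 and -1.23) lies apart on the left in astrocyte- and oligodendrocyte-like nuclei. Rpl6 and Rpl5 lie toward the left, but in OPC-like nuclei Rpl6 (-0.20) lies among other genes. Rpl7l1 had under 100 UMIs in the OPC- and microglia-like classes and is not drawn there. Rpl5 had 92 in the microglia-like class and is not drawn there.

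The sum of the neuropeptide genes, known as products of neurons, showed a like ratio between classes. In astrocyte-like nuclei the 12 neuropeptides summed to 1.64, 2.02, 2.09 and 2.14 times their neuronal CPM, and the 81 members to 1.94, 2.19, 2.19 and 2.15 times. In OPC-like nuclei the neuropeptides had 1.24, 1.45, 1.53 and 1.56 and the members 1.42, 1.58, 1.64 and 1.61. Microglia-like nuclei had 1.96, 2.22, 2.67 and 2.44 against 2.37, 2.56, 2.77 and 2.80, and oligodendrocyte-like nuclei 1.82, 1.98, 2.09 and 2.15 against 2.17, 2.27, 2.30 and 2.21. For these sums the members' ratio was the higher one in each class and library, by little in ImP 4 astrocyte-like nuclei. Single genes varied. In astrocyte-like nuclei Hcrt lay above the members in each library, at 2.21, 2.23, 2.20 and 2.61 times its neuronal CPM. Nts lay below them, at 1.35, 1.54, 1.59 and 1.45. Gh, at 1.37, 2.03, 2.20 and 2.51, lay below the members in the vehicle libraries and above them in the ImP libraries. Agrp was lower in oligodendrocyte-like than in neuron-like nuclei, at 0.425, 0.457, 0.403 and 0.670 times its neuronal level. Pomc, which the pituitary also makes, was at 33.6, 26.9, 44.6 and 189.8 CPM in neuron-like nuclei, highest in ImP 4 as Gh was. How much of the members' UMIs in glial nuclei was free RNA was not tested.

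**Figure D4:**
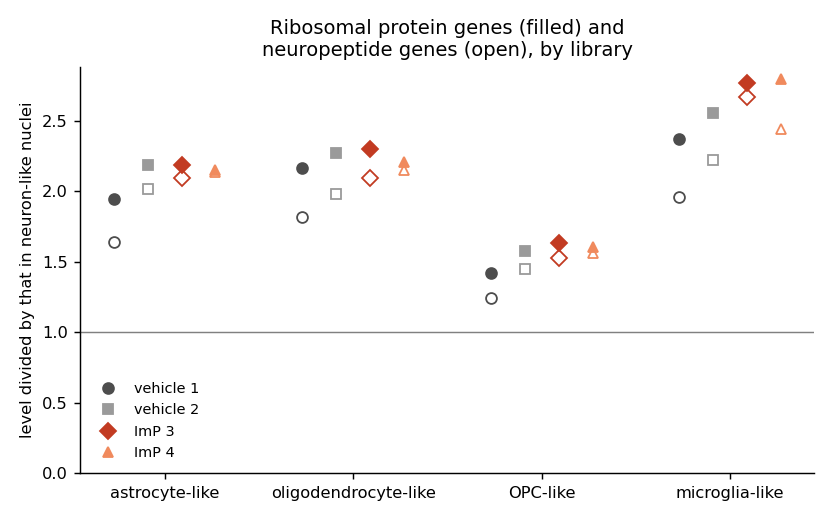
Level in each glial class divided by the level in neuron-like nuclei of the same library, for the 81 ribosomal protein genes (filled) and 12 neuropeptide genes (open). Both lie between 1.24 and 2.80 in every library, and the classes keep the same order apart from astrocyte- and oligodendrocyte-like nuclei.

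The class difference was smaller at matched UMIs per nucleus. Among nuclei of 1500 to 3000 UMIs, 55 of 80 members were higher in astrocyte-like than in neuron-like nuclei by edgeR (29% of all genes), with a median log2 ratio of 0.35. In oligodendrocyte-like nuclei 70 of 80 were (30% of all genes), with 0.50. In OPC-like nuclei 15 of 80 were, close to the 20.3% of all genes, with 0.19. Rpl6 had -0.082 in astrocyte-like nuclei of this window. Microglia-like nuclei were too few for this window.

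The third comparison took nuclei of 1 class and library and split them at the median UMI count. The members rose in the low-UMI group. In neuron-like nuclei 79 of 80 were higher there by edgeR (27.1% of all genes), with a median log2 ratio of 0.71. In astrocyte-like nuclei 72 of 80 were (8.54%), with 0.59, and in oligodendrocyte-like nuclei 78 of 80 (9.89%), with 0.59. Summed over members, the log2 ratio in neuron-like nuclei was 0.82, 0.84, 0.82 and 0.77 in the 4 libraries, a spread far below its size. These are shares of a total that itself defines the split, so a gene with a fixed number of UMIs per nucleus rises by construction.

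Rplp1 (0.85 ± 0.03 SE), Rpl13 (0.78 ± 0.03 SE) and Rpl9 (0.72 ± 0.03 SE) had the smallest p in neuron-like nuclei, and Rpl39, of the exit tunnel, the next largest ratio (0.83 ± 0.04 SE). Rpl7l1 had 0.10 ± 0.05 SE, with an adjusted p of 0.124 by edgeR, and Rpl5 had 0.36 ± 0.04 SE. In oligodendrocyte-like nuclei Rpl7l1 had 0.00 ± 0.21 SE, while Rpl36a had 0.81 ± 0.12 SE. In astrocyte-like nuclei Rpl22 had the largest ratio, 0.88 ± 0.16 SE, and Rpl5 (0.19 ± 0.13 SE) and Rps25 (0.21 ± 0.13 SE) the smallest. Rps24 (0.62 ± 0.06 SE) and Rpl9 (0.61 ± 0.06 SE) were close to the median of 0.59 in oligodendrocyte-like nuclei, where Rpl23a had 0.36 ± 0.12 SE.

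Across bins of UMIs per nucleus the members' number grew far less than the total. Between the bins under 1000 and over 12000 UMIs, total UMIs per neuron-like nucleus grew 16.7- to 18.4-fold over the libraries and the members' UMIs 3.04- to 4.38-fold. In neuron-like nuclei of 4000 to 6000 UMIs the share was 0.561% and 0.614% with vehicle and 0.699% and 0.696% with ImP. In astrocyte-like nuclei of 1000 to 1500 UMIs it was 1.29% and 1.55% against 1.86% and 1.92%. In oligodendrocyte-like nuclei of the same bin it was 1.30% and 1.65% against 1.97% and 1.94%. At matched UMIs both ImP libraries were above both vehicle libraries in every bin but the neuronal one under 1000 UMIs, which held 24 to 69 nuclei a library. The log2 ratio by bin was 0.23 to 0.36 in neuron-like and 0.41 to 0.48 in astrocyte-like nuclei.

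**Figure D5:**
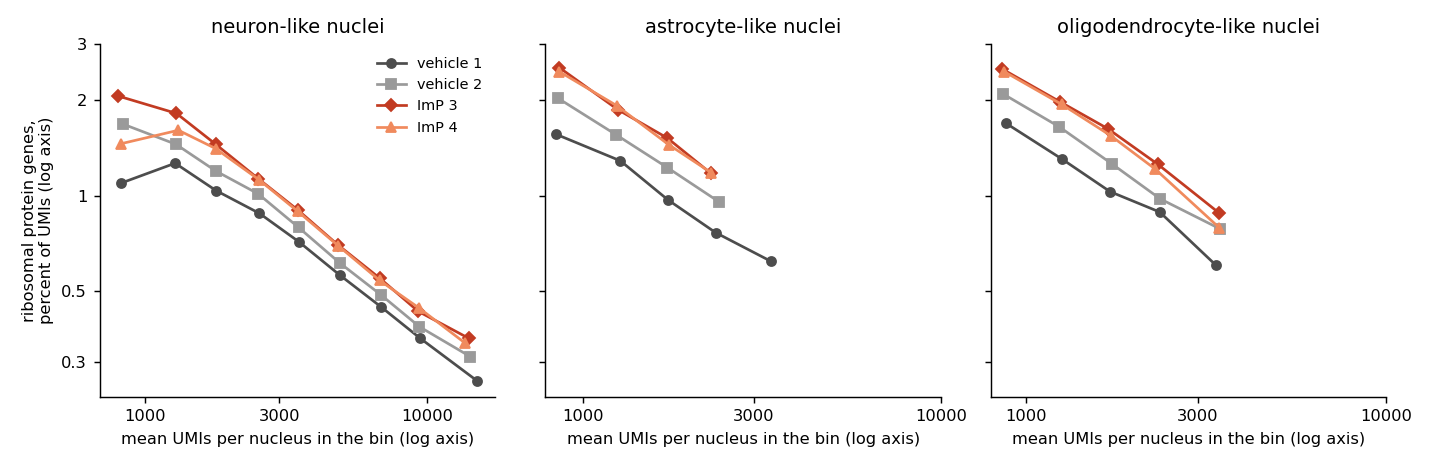
Share of UMIs from the 81 ribosomal protein genes (percent, log axis) against mean UMIs per nucleus (log axis) in bins of nuclei, 1 line per library; bins of at least 20 nuclei are drawn. Shares fall as UMIs rise in nearly every step, and at 4000 to 6000 UMIs per neuron-like nucleus the ImP libraries lie at 0.699% and 0.696%, above 0.561% and 0.614% with vehicle.

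The 4 further ribosome genes (among them Rack1, a scaffold on the small subunit, and Rpl36al, a relative of Rpl36a) matched the members. In neuron-like nuclei all 4 were higher in both ImP libraries, with a median log2 ratio of 0.44, and all 4 rose in the low-UMI group, by a median of 0.63. Of 37 translation factors 18 were higher in both ImP libraries and 5 lower, with a median of 0.12. The 28 ribosome assembly genes, such as Ncl and Fbl, had 5 higher and 4 lower, with 0.02. The 12 regulators of TOP mRNA translation, among them Larp1, Mtor and Rptor, had 3 higher and 7 lower, with -0.03. None of these passed the threshold for ImP by edgeR. Of all 19727 genes tested, 3265 were higher in both ImP libraries and 4079 lower in both.

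In neuron-like nuclei genes of mitochondrial proteins lay between. Of 78 mitochondrial ribosome genes 41 were higher in both ImP neuron-like libraries and 7 lower, with a median of 0.15. Of 75 nuclear genes of oxidative phosphorylation 66 were higher and 2 lower, with 0.36. In glia the oxidative phosphorylation genes came close to the members or passed them. Their medians for ImP were 0.47, 0.43, 0.51 and 0.70 in astrocyte-, oligodendrocyte-, OPC- and microglia-like nuclei, against 0.51, 0.41, 0.54 and 0.59 for the members. In the low-UMI group of neuron-like nuclei 67 of 74 oxidative phosphorylation genes rose, with a median of 0.53, and 54 of 78 mitochondrial ribosome genes rose, with 0.31. Ribosome assembly genes had 13 of 28 higher and 2 lower there (0.14), and of 9 RNAs retained in the nucleus, such as Malat1 and Meg3, 2 were higher and 6 lower (-0.15). All 12 neuropeptides rose there, with a median of 0.58. These counts are of genes past the threshold by edgeR. Of all 17547 genes tested there, 4751 were higher and 3806 lower by the same rule.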

How the data were processed

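Nuclei of 4 hypothalamus libraries were processed by the authors. The submitters' processing notes name Cell Ranger 8.0.1, Seurat 5.0.0 and the build GRCm39. The deposited values are whole-number counts of UMIs per gene and barcode. The labels do not state the annotation, the handling of introns or the treatment of reads that match several copies. Ribosomal protein genes have many near-identical pseudogenes, so levels of single genes are uncertain. Nuclei with at least 500 genes and at most 5% mitochondrial UMIs were gated by 10 markers for each of 10 classes (at least 3 with a UMI, other classes at no more than 0.5 times as many). No doublet caller was run. The gate left out only nuclei with many markers of a further class, so doublets of the same class could pass it. An alternative removed the highest-UMI nuclei at 0.8% per 1000 barcodes.

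UMIs of each class in each library were added up and tested across all genes with edgeR 4.0.16 in R 4.3.3 (quasi-likelihood, TMM factors, filterByExpr at a minimum count of 10, Benjamini-Hochberg adjustment over all genes tested, threshold 0.05), and with DESeq2 1.42.0 as an alternative. Classes, and nuclei below and above a library's median UMI count, were compared with library as a term. Standard errors come from the test statistic. The fit was run on simulated counts with known changes and the same spread set for every gene. Those counts hold no shift that genes of a library share, so that run does not bear on such shifts. CPM are scaled to the class total. Named genes were the 5 with the highest neuronal CPM, the 3 with the smallest p and the 2 at each end of the ratio in each comparison, and the stalk, 5S and paralog lists. Some genes that this rule or the lists name are not reported here singly. Members and lists were chosen with earlier results of these data known. The window of 1500 to 3000 UMIs for ImP and the gate without Gh and Prl were chosen after seeing the data. Promoters were taken from the RefSeq table.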

Additional observations from a re-analysis of the deposited data

Results flagged for a closer look

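The nuclei that the gate left out entered no comparison, and they held more ribosomal protein RNA in the ImP libraries than in the vehicle libraries. The 81 genes gave 0.594% of their UMIs in vehicle 1, 0.755% in vehicle 2, 0.931% in ImP 3 and 1.02% in ImP 4, so that the mean was 0.974% with ImP and 0.674% with vehicle. The groups did not overlap. These nuclei numbered 2764, 3676, 4759 and 7589, and their class is not known. Their median UMIs were 3550, 2926.5, 2728 and 2463 in the same order, and in the gated classes the share was higher at low UMIs. In ImP 4 the gate took up 8136 nuclei, and 10218 with Gh and Prl left out of it. What these differences contribute was not tested.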

How the results depend on the processing

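Of the summary values under alternatives, 232 stayed close to the reported ones and 53 moved. DESeq2 called 49 members for ImP in neuron-like nuclei, among 192 of all 19727 genes. With the number that opens the library names as a block, 53, 49, 36, 12 and 13 members were called in neuron-, astrocyte-, oligodendrocyte-, OPC- and microglia-like nuclei. Of all genes, 401 of 19727, 386 of 11622, 385 of 11738, 100 of 9123 and 57 of 3778 were then called higher and 11, 41, 134, 7 and 17 lower. The labels do not say what that number is, and deviations of same-numbered libraries correlated at 0.288, 0.174, 0.251, 0.0676 and 0.000697. Without a filter on low counts 1, 1 and 6 members were called in astrocyte-, oligodendrocyte- and OPC-like nuclei, with 71, 107 and 82 of all genes higher and 5, 16 and 3 lower. In OPC-like nuclei 1 was called without TMM factors (17 of all genes higher) and 1 with Gh and Prl out of the gate (20 higher, 1 lower), and in microglia-like nuclei 1 with a stricter gate (8 higher, 2 lower). Leaving out each library in turn gave 0 to 47, 0 to 40, 0 to 1, 0 to 29 and 0 to 9 calls in the 5 classes, where 0 to 486, 0 to 286, 0 to 239, 16 to 130 and 8 to 52 of all genes were called higher and 0 to 98, 0 to 25, 0 to 113, 0 to 15 and 5 to 14 lower. It gave median log2 ratios of 0.29 to 0.60, 0.25 to 0.77, 0.23 to 0.60, 0.30 to 0.81 and 0.35 to 0.85. A group left with 1 library is assumed to vary like the other. The neuronal median was 0.29 at matched UMIs and 0.28 at 1500 to 3000 UMIs.

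Against neurons, the medians in astrocyte-, oligodendrocyte-, OPC- and microglia-like nuclei were 1.01 to 1.10, 1.22 to 1.27, 0.59 to 0.66 and 0.86 to 0.95 with each library left out. Without the nuclei of highest UMIs they were 0.91, 1.07, 0.48 and 0.76. Without a filter they were 0.95, 1.15 and 0.80 in astrocyte-, oligodendrocyte- and microglia-like nuclei, and without TMM factors 1.18 and 1.41 in the last 2. At 1500 to 3000 UMIs they were 0.35, 0.50 and 0.19, with 15 calls in OPC-like nuclei; microglia-like nuclei were not run. Between UMI groups, the neuronal median was 0.82 without TMM factors, 0.51 without the nuclei of highest UMIs and 0.93 between outer terciles. In astrocyte-like nuclei it was 0.54 without a filter and 0.80 between terciles, and in oligodendrocyte-like nuclei 0.54 without a filter, 0.54 with a stricter gate and 0.82 between terciles. With each library left out these medians were 0.68 to 0.71, 0.56 to 0.60 and 0.57 to 0.62.

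Single genes near 0 changed sign, none past the threshold. For ImP, Rpl7l1 in neuron-like nuclei had -0.015 with a stricter gate, -0.12 at 1500 to 3000 UMIs and -0.026 to 0.097 with each library left out. Rpl7a had -0.084 at matched UMIs in astrocyte-like nuclei (-0.10 to 0.31 with each library left out), and in microglia-like nuclei 0.12 with Gh and Prl out of the gate and 0.29 at matched UMIs (-0.38 to 0.29). Rpl10 had -0.28 at matched UMIs in OPC-like nuclei (-0.27 to 0.39), and -0.088 to 0.25 in oligodendrocyte-like nuclei. Rpl10a had 0.19 with a stricter gate and 0.12 without Gh and Prl (-0.32 to 0.17). Rpl35 ranged from -0.40 to 0.69 in astrocyte-like and -0.12 to 0.51 in oligodendrocyte-like nuclei, and its glial against neuronal difference was 0.23 at matched UMIs. Against neurons, Rpl6 had -0.082 in astrocyte-like nuclei of 1500 to 3000 UMIs. Rpl7l1 had 0.011 without TMM factors in astrocyte-like (-0.094 to 0.0052), 0.020 at 1500 to 3000 UMIs in oligodendrocyte-like (-0.083 to 0.029) and -0.090 with a stricter gate in OPC-like nuclei (-0.050 to 0.15). Rps27l ranged from -0.13 to 0.52 in microglia-like nuclei. Between UMI groups, Rps25 had -0.014 with a stricter gate in astrocyte-like nuclei, and Rpl7l1 in oligodendrocyte-like nuclei -0.046 without a filter, -0.012 without the nuclei of highest UMIs and -0.13 to 0.12 with each library left out. The causes were not tested. The 85 to 144 microglia-like nuclei per library limit the precision of that class.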
